A study of Mus musculus with 15 samples.

Results

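The genes described here are 10 adipogenic regulators and lipid storage genes: Pparg, Cebpa, Cebpb, Fabp4, Adipoq, Lpl, Plin1, Plin2, Cd36 and Lep. They were taken by symbol from the annotation of the array, which gave 16 of 45101 probe sets for 9 of the 10 genes. Plin1, the coat protein of fat cell droplets, has no named probe set in the annotation used and is not analysed here. Fabp4 has 4 probe sets, Cd36 has 3, Cebpb and Lpl have 2 each, and the other members have 1. Where a gene has several, the one with the highest average signal stands for it, and 18193 genes were tested in this way.

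Total RNA of 15 mouse samples was hybridised to Affymetrix arrays, with 3 samples in each of 5 groups. MSC are mesenchymal stromal cells, the multipotent connective tissue cells of which fat cells are a known fate, kept in low-glucose DMEM with 10% serum. HD28 are MSC given hepatocyte growth factor (20 ng/ml), basic fibroblast growth factor (10 ng/ml) and nicotinamide (0.61 g/L) for 7 days, and after that oncostatin M (20 ng/ml), the glucocorticoid dexamethasone (1 µmol/L) and an ITS supplement. dHD28 are HD28 cells put back into MSC medium, for a time that the labels do not give. Hepatocyte samples are primary mouse hepatocytes in DMEM/F12 with 10% serum. MLC are primary hepatocytes brought into MSC medium with TGF-β1 at 10 ng/ml for 7 days, 5 ng/ml to day 14 and 1 ng/ml to day 28. Strain, sex and age are not given, no group is labelled as fat cells, and whether replicates are separate cultures or animals is not stated. The p-values below therefore measure the spread between these samples, which may be technical.

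Adipogenesis is known as a cascade of transcription factors. The early factors C/EBPβ and C/EBPδ, which glucocorticoids and other inducers raise, lead to PPARγ and C/EBPα, and these switch on the genes for fatty acid uptake, droplet coating and adipokine secretion. Dexamethasone is a usual component of adipogenic media as well as of the hepatogenic medium used here. Several of these genes are also known outside fat: C/EBPα in hepatocytes, PLIN2 on the droplets of most cells, and CD36 and FABP4 in macrophages and endothelium.

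Values are log2 expression values, so a difference of 1 is a fold of 2. The table holds no detection calls. The lower quartile of an array, between 3.43 and 3.7, is given as a mark of dim signal. A gene was called higher or lower at an adjusted p under 0.05 (limma, Benjamini-Hochberg over 18193 genes) and a fold of at least 2. Array medians lay between 4.84 and 4.95. Markers of stromal cells (6 genes) averaged 9.38 to 9.96 in MSC, HD28, dHD28 and MLC, and hepatocyte markers (8 genes) averaged 12.83 to 13.08 in the Hepatocyte arrays. The stromal markers averaged 4.86 to 5.73 in Hepatocyte, but Thy1 and Nt5e among them overlapped between MSC and Hepatocyte. Thy1 stood at 5.91, 3.91 and 4.35 in MSC and at 4.92, 4.76 and 4.23 in Hepatocyte. Nt5e stood at 6.11, 5.91 and 5.98 in MSC and at 6.05, 6.3 and 6.06 in Hepatocyte. HD28 replicate 3 stood apart, with hepatocyte markers at 11.37 against 4.33 and 4.66 in HD28 replicates 1 and 2, so the HD28 results were also computed without it. The arrays also fell into 6 of high and 9 of low poly-A spike-in signal, a labelling control, and each group held both. The classes were not balanced: MLC replicates 1 and 2 were high (7.61 and 8.04), while each other group had 1 high array.

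Of the 9 measured members, Cebpa, Plin2, Cd36 and Fabp4 were called in at least 1 of 7 comparisons of groups, and Pparg, Cebpb, Adipoq, Lpl and Lep in none. The share of all genes called in at least 1 of the 7 was not counted. MLC minus Hepatocyte alone called 30.5% of all genes, so the count of members is no result about them. The sequence upstream of a transcript start is shown for Cebpa, Plin2 and Cd36, the 3 members that were higher in Hepatocyte than in MSC arrays. Each is the 250 bases before a start in RefSeq (GRCm38.p6), 5′ to 3′ on the strand of the gene. The Cebpa stretch is chr7:35119043-35119292 on the plus strand, the Plin2 stretch chr4:86670060-86670309 on the minus strand and the Cd36 stretch chr5:17835897-17836146 on the minus strand. The Plin2 and Cd36 genes extend beyond those starts, to positions 86670217 and 17888959. Part of the Plin2 stretch and all of the Cd36 stretch therefore lie within the annotated gene. Capitals mark matches to a searched motif.
Cebpa: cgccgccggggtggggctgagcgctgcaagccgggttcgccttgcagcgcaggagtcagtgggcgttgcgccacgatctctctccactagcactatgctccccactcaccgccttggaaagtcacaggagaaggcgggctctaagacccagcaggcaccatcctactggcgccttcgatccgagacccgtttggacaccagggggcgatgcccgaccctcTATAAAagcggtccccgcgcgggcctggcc
Plin2: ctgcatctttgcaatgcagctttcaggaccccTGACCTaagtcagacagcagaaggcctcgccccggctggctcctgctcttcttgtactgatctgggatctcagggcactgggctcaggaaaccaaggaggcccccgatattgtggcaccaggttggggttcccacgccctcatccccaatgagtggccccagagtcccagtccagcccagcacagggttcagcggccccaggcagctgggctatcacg
Cd36: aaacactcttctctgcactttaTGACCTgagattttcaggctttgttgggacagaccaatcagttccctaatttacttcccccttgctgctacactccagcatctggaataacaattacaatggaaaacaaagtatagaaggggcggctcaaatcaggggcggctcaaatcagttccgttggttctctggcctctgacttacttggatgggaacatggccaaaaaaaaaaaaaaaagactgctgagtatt
The motifs searched on both strands were the PPARγ-RXR element (a direct repeat of AGGTCA with 1 base between), AGGTCA alone (which overlaps it), TTGCNNAA (C/EBP), the glucocorticoid response element and TATAAA (the TATA box). Plin2 holds AGGTCA from base -218 to -213 and Cd36 from -228 to -223, counted from the start site. Both lie on the strand opposite to the gene and read TGACCT in the printed stretch. Of 32851 windows of this length in the table, 14.0% hold that motif. Cebpa holds TATAAA from -30 to -25, and 12.4% of windows hold a match to TATAAA at any position on either strand. The share with a match at that position was not counted. The GC content of the 3 stretches was 66.4%, 61.6% and 43.2%. A match is a run of letters and not a bound site, and Fabp4 and Lpl have no entry in the promoter table.

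Among the transcription factors, the level of Pparg, the nuclear receptor at the centre of fat cell differentiation, ranged from 6.17 to 7.20 over the 15 arrays, and no comparison was called. MSC replicates 1 to 3 stood at 6.64, 6.26 and 6.4 and HD28 replicates at 7.08, 7.01 and 6.6. The groups overlapped, with HD28 replicate 3 below MSC replicate 1. The difference of HD28 minus MSC was 0.47 ± 0.28 (SE, n = 3 per group) on the log2 scale, with a 95% interval from -0.14 to 1.07 and an adjusted p of 0.352 by limma. dHD28 averaged 6.73 ± 0.29 (SD, n = 3), Hepatocyte 6.75 ± 0.53 and MLC 6.55 ± 0.47. In the order HD28, Hepatocyte, dHD28, MLC, MSC no neighbouring groups were told apart. Which transcript forms of Pparg its probe set reads was not examined, and the promoter table holds 3 start sites of the gene.

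Cebpa, which encodes C/EBPα, a driver of terminal fat cell differentiation that is also enriched in liver, was high in the hepatocytes. The Hepatocyte arrays stood at 11.07, 11.52 and 10.99 and the MSC arrays at 8.73, 8.42 and 8.13. The groups did not overlap, and the mean was 6.79-fold higher in Hepatocyte (log2 2.76 ± 0.40, SE, adjusted p = 7.21e-05, limma). HD28 stood at 8.14, 7.52 and 8.91, within reach of MSC and with the highest value in replicate 3. The difference of HD28 minus MSC was -0.24 ± 0.40 (95% interval -1.11 to 0.63, adjusted p = 0.78). MLC stood at 7.23, 8.53 and 7.94, which is 9.79-fold under Hepatocyte (log2 -3.29, adjusted p = 1.57e-05). MSC, dHD28, HD28 and MLC, in that order of means, were not told apart from their neighbours.

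Cebpb encodes C/EBPβ, an early factor that acts before Pparg. Its HD28 arrays stood at 10.66, 10.51 and 10.45, and its MSC arrays at 10.04, 9.61 and 10.18. All 3 HD28 values lay above all 3 MSC values, but the difference of 0.60 ± 0.24 had an adjusted p of 0.147 and a fold of 1.51, so it was not called. dHD28 lay at 9.97, 9.95 and 9.91, again without overlap with HD28 (log2 -0.60, adjusted p = 0.128). The second probe set of the gene gave 0.58 for HD28 minus MSC and -0.23 for dHD28 minus HD28, and neither passed. MLC lay under Hepatocyte by -0.70 with an adjusted p of 0.0288, which misses only the fold limit. The arrays of these groups overlapped, and the difference was -0.07 within the low and -1.26 within the high class of spike-in signal. The second probe set gave -0.86 (adjusted p = 0.0735 by limma over all named probe sets).

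**Figure D1:**
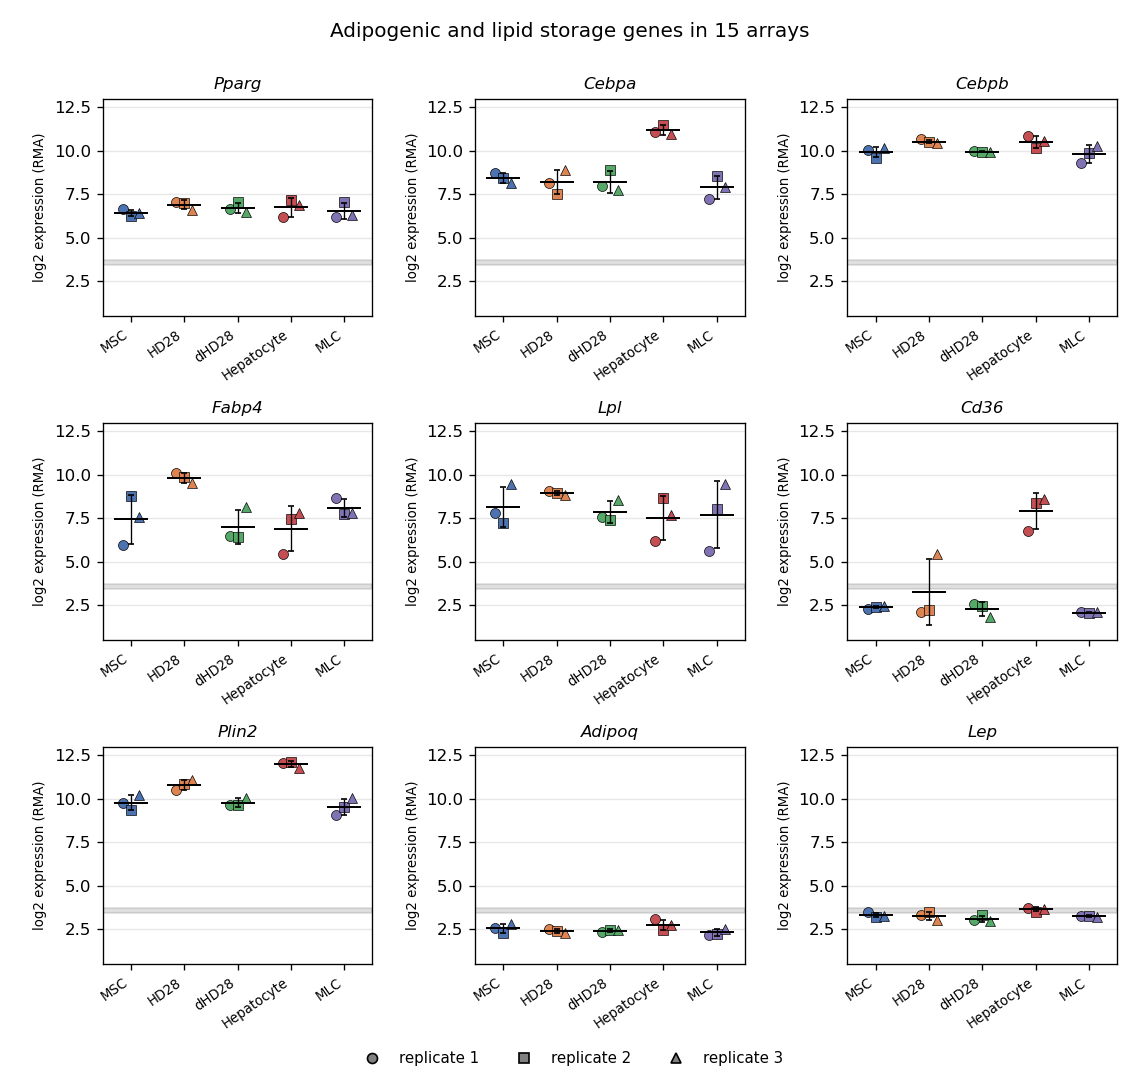
Log2 expression (y axis) of the 9 measured members by group (x axis), with a marker for each of 3 replicates, a line at the group mean and a bar for its SD; the grey band spans the lower quartiles of the arrays (3.43 to 3.7). Fabp4 is highest in HD28, Cebpa, Plin2 and Cd36 in Hepatocyte, and Adipoq lies under the band in all groups.

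Fabp4, the fatty acid binding protein of fat cells, had its highest levels in HD28. The HD28 arrays stood at 10.09, 9.9 and 9.53 and the MSC arrays at 5.96, 8.81 and 7.55. The groups did not overlap, but MSC varied widely, with an SD of 1.43 against 0.28 in HD28. The mean was 5.29-fold higher in HD28 (log2 2.40 ± 0.72, SE, n = 3 per group, 95% interval 0.84 to 3.97), and the adjusted p of 0.0512 by limma just missed the threshold. Within the arrays of low spike-in signal (2 per group) the difference was 1.63, and within those of high signal (1 per group) it was 3.94. With that class as a block the adjusted p was 0.0201. Without MSC replicate 2, dHD28 replicate 3 or Hepatocyte replicate 1 the gene also passed (adjusted p = 0.0216, 0.042 and 0.0268). Without HD28 replicate 3 the difference was 2.56 (adjusted p = 0.0838). Over all settings tried the adjusted p ranged from 0.0189 to 0.215 and the difference from 1.41 to 3.09.

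On return to MSC medium Fabp4 fell. The dHD28 arrays stood at 6.47, 6.44 and 8.14, all under the lowest HD28 array, and the mean fell 7.09-fold (log2 -2.83 ± 0.72, adjusted p = 0.02). The call ended without HD28 replicate 1 or 2 or dHD28 replicate 1 or 2, with adjusted p between 0.0606 and 0.0829, while the difference stayed between -2.80 and -2.54. Fabp4 was also 7.60-fold higher in HD28 than in Hepatocyte, where the arrays lay at 5.44, 7.48 and 7.82 (log2 2.93 ± 0.72, adjusted p = 0.00502). MLC lay at 8.69, 7.76 and 7.83, above MSC by 0.66 ± 0.72 and not told apart from it (adjusted p = 1). That difference was -0.35 within the low and 2.27 within the high class of spike-in signal. In the order HD28, MLC, MSC, dHD28, Hepatocyte no neighbours were called, although the arrays of HD28 and MLC did not overlap (1.74 ± 0.72, adjusted p = 0.151).

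The probe sets of Fabp4 fell into 2 bright and 2 dim ones. The brightest and the second brightest correlated across the 15 arrays at r = 0.991, as a description of probe sets that share their arrays. In the second brightest the HD28 arrays stood at 8.7, 8.59 and 8.63 and the MSC arrays at 5.08, 7.85 and 6.46. The difference there was 2.17 ± 0.71 (adjusted p = 0.0855 over all named probe sets), and the fall to dHD28 was -2.62 (adjusted p = 0.0315). The dim sets ranged from 4.14 to 5.37 and from 2.37 to 4.50 and were not called between HD28 and MSC (0.33 and 0.72). They correlated with the brightest set at only 0.112 and 0.265, so the Fabp4 values rest on the 2 bright sets.

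**Figure D2:**
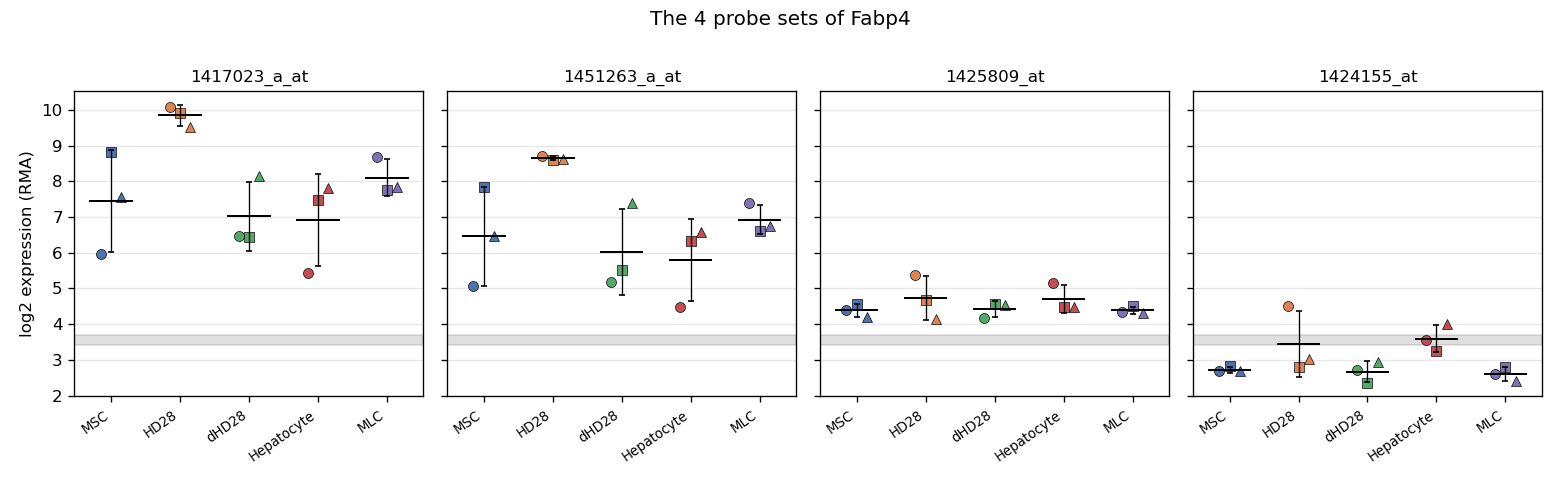
Log2 expression (y axis) of the 4 probe sets of Fabp4 by group (x axis), from the brightest to the dimmest, with circles, squares and triangles for replicates 1 to 3, a line at the mean and a bar for the SD; the grey band spans the lower quartiles of the arrays. The first 2 sets show HD28 above all MSC arrays, and the last lies under the lower quartile of its array in 13 of 15 arrays.

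Macrophages and endothelium are known to hold FABP4. In HD28 replicates 1 to 3, with Fabp4 at 10.09, 9.9 and 9.53, the 10 Kupffer cell and macrophage markers averaged 4.11, 4.33 and 5.65, with 3, 3 and 0 of 10 under the lower quartile of the array. The MSC arrays averaged 4.32 to 4.45, so HD28 replicate 3 lay above them and the other HD28 arrays did not. Among these markers Cd68, a lysosomal protein of macrophages, stood at 6.51, 6.14 and 6.09 in HD28 and at 4.61, 4.94 and 5.57 in MSC, without overlap. It was the 1 marker of the list with an unadjusted p under 0.05, and it was not called (log2 1.21 ± 0.50, adjusted p = 0.154, limma). Cd68 is named here after its values were seen. The 8 endothelial markers averaged 4.15, 4.46 and 5.16 in the HD28 arrays and 4.27 to 4.43 in MSC. In the Hepatocyte arrays these lists averaged 6.42 to 8.17 and 6.11 to 7.28. Fabp4 there, at 5.44, 7.48 and 7.82, was lower than in HD28 but not told apart from MSC. Replicate 1 had the lowest level of both lists in that group, as it did of Fabp4, and was its only array of high spike-in signal. The part of these cells in the HD28 and Hepatocyte values was not tested.

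Lpl encodes lipoprotein lipase, which releases fatty acids from circulating triglyceride. Its HD28 arrays lay close together at 9.1, 8.94 and 8.84, while MSC stood at 7.78, 7.22 and 9.45. The groups overlapped, with MSC replicate 3 above every HD28 array, and the difference of 0.81 ± 0.86 was not called (95% interval -1.06 to 2.67, adjusted p = 0.633). The dHD28 arrays at 7.59, 7.39 and 8.58 all lay under HD28 (log2 -1.11 ± 0.86, adjusted p = 0.481). Spread was widest in MLC, with 5.62, 8.06 and 9.45 (SD 1.94), and Hepatocyte stood at 6.17, 8.69 and 7.72. The second Lpl probe set, which correlated with the first at 0.94, gave 0.91 ± 0.75 for HD28 minus MSC. No comparison of this gene passed, and the intervals leave room for differences of several fold.

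Cd36, the fatty acid translocase and scavenger receptor, was dim in most arrays, under the lower quartile in 11 of 15, and bright in the Hepatocyte group. The Hepatocyte arrays stood at 6.75, 8.41 and 8.64, against 2.31, 2.38 and 2.44 in MSC. The groups were far apart (log2 5.56 ± 0.71, adjusted p = 2.42e-05, limma), a 47.2-fold difference that is approximate because all MSC values lie under the lower quartile of their arrays. All MLC values, at 2.1, 2.05 and 2.09, were as dim (log2 -5.86 against Hepatocyte, adjusted p = 1.5e-05). The other 2 probe sets followed the first across arrays at r = 0.993 and 0.971.

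Among HD28 arrays, Cd36 was at 2.13 and 2.2 in replicates 1 and 2 and at 5.44 in replicate 3, the array with hepatocyte markers at 11.37. In the same array the Kupffer cell markers averaged 5.65, against 4.11 and 4.33, and the endothelial markers 5.16, against 4.15 and 4.46. The mean difference of HD28 minus MSC (0.88 ± 0.71, adjusted p = 0.502) therefore rests on replicate 3, and without it the difference was -0.21 ± 0.43 (adjusted p = 0.846). Replicates 1 and 2 lay under all MSC arrays in the brightest probe set, but in the dimmest they stood at 2.22 and 2.38, above all MSC arrays (2.05 to 2.06), and all of these values are dim. Within the Hepatocyte group, replicate 1 had the lowest Cd36, Kupffer cell markers (6.42, against 7.89 and 8.17) and endothelial markers (6.11, against 7.13 and 7.28), while its hepatocyte markers were the highest (13.08). That replicate is also the only Hepatocyte array of high spike-in signal (8.45, against 5.55 and 5.61), and the 2 traits cannot be told apart here. Which cells gave the Cd36 signal was not tested, and in samples of mixed cells a change in the number of cells of a type and in RNA per cell cannot be told apart.

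**Figure D3:**
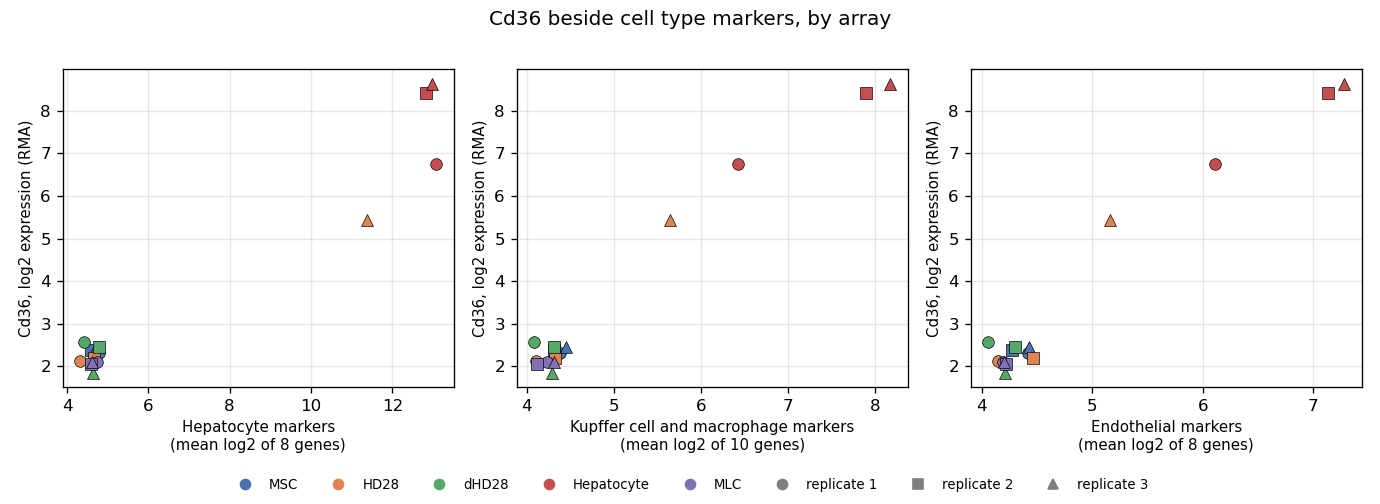
Log2 expression of Cd36 (y axis) against the mean log2 expression of 8 hepatocyte, 10 Kupffer cell and macrophage, and 8 endothelial markers (x axes), a point per array, with color for the group and shape for the replicate. HD28 replicate 3 (Cd36 at 5.44) lies away from the other HD28 arrays in all panels. Hepatocyte replicate 1, the only array of its group with high spike-in signal, has the lowest Cd36, macrophage and endothelial values there.

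Plin2, the droplet coat protein found in most cells that store lipid, was ordered by group. HD28 stood at 10.49, 10.85 and 11.08 and MSC at 9.74, 9.37 and 10.24. The groups did not overlap, and Plin2 rose 2.03-fold in HD28 (log2 1.02 ± 0.26, SE, n = 3 per group, adjusted p = 0.0242), just past the fold limit. It was 0.98 within the low and 1.11 within the high class of spike-in signal. The call ended without MSC replicate 1 or 2 or HD28 replicate 2 or 3, with differences of 1.00, 0.82, 1.00 and 0.89 and adjusted p between 0.0739 and 0.0929. HD28 replicate 3, the array with hepatocyte markers, had the highest Plin2 of its group, and the part of those markers in the rise was not tested beyond this omission. With only the HD28 and MSC arrays in the fit the adjusted p was 0.0776.

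Plin2 fell again in dHD28, to 9.67, 9.64 and 10.06 (log2 -1.02 ± 0.26, adjusted p = 0.0208), a mean of 9.79 beside 9.78 in MSC. That call too ended without HD28 replicate 2 or 3 or dHD28 replicate 1 or 2 (adjusted p between 0.0649 and 0.0788). The Hepatocyte arrays at 12.04, 12.13 and 11.8 lay above all others, 4.61-fold over MSC (log2 2.20 ± 0.26, adjusted p = 1.32e-05). HD28 therefore stood between, 2.26-fold under Hepatocyte (adjusted p = 0.0025). MLC, at 9.1, 9.52 and 10.03, lay 5.41-fold under Hepatocyte (log2 -2.44, adjusted p = 5.42e-06). In the order Hepatocyte, HD28, dHD28, MSC, MLC the first 3 were told apart from each other, and dHD28, MSC and MLC were not.

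The adipokines Adipoq (adiponectin) and Lep (leptin), which mature fat cells secrete, were dim throughout. Adipoq ranged from 2.18 to 3.06 and lay under the lower quartile in 15 of 15 arrays. HD28 was at 2.53, 2.42 and 2.27, and MSC at 2.55, 2.31 and 2.79 (log2 -0.14 ± 0.17, adjusted p = 0.684). Lep ranged from 2.98 to 3.75, under the lower quartile in 13 of 15 arrays, and HD28 minus MSC was -0.06 ± 0.15 (adjusted p = 0.858). Lep in Hepatocyte, at 3.75, 3.51 and 3.67, lay above all MSC arrays by 0.33 ± 0.15, which was not called (adjusted p = 0.0965). Of the other markers of mature fat cells, 6 genes were measured. In HD28 their mean was 4.24 to 4.52 and in MSC 4.39 to 4.55, and by limma 0 of 6 were called between these groups, with 0 at an unadjusted p under 0.05.

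By comparison, 1 of 9 members rose in HD28 against MSC (Plin2) and 0 fell, beside 3.24% and 3.52% of all 18193 genes (6.77% in either direction). The unadjusted p was under 0.05 for 3 members (Cebpb, Fabp4 and Plin2), and the median difference of the members was 0.60 against -0.08 for all genes. From HD28 to dHD28, Fabp4 and Plin2 fell and 0 rose, beside 4.19% of all genes lower and 4.63% higher (8.82% together). Between dHD28 and MSC, and between MLC and MSC, limma called 0 of 9 members and 0% of all genes, with 0 members at an unadjusted p under 0.05. The dHD28 minus MSC intervals were wide for some members, from -1.99 to 1.14 for Fabp4 and from -2.16 to 1.57 for Lpl, and narrower for Plin2 (-0.56 to 0.57).

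Cebpa, Plin2 and Cd36 were higher in Hepatocyte than in MSC, 3 of 9 beside 11.8% of all genes higher and 18.3% lower (30.1% together). Centring on 7 housekeeping genes shifted the all-gene median from 0.04 to 0.29. With it the calls over all genes went from 2149 up and 3327 down to 2756 and 2653, and Cebpa, Plin2 and Cd36 were called there too. Of the 7 housekeeping genes, 2 were themselves called higher and 3 lower in Hepatocyte against MSC, so they are no steady reference here. In HD28 against Hepatocyte, Cebpa, Plin2 and Cd36 were lower and Fabp4 higher (11.2% of all genes lower and 15.3% higher, 26.5% together, or 2786 higher and 2039 lower, and 2199 and 2763 after that centring). In MLC against Hepatocyte, Cebpa, Plin2 and Cd36 were lower and 0 of 9 higher, beside 12% and 18.4%, or 30.5% together (3353 higher and 2188 lower, and 2599 and 2988 after that centring). The change on return to MSC medium, MLC minus Hepatocyte against dHD28 minus HD28, differed in 4 of 9 members (Cebpa, Fabp4, Plin2 and Cd36) beside 23.7% of all genes. Without HD28 replicate 3, HD28 minus Hepatocyte was -3.36 for Cebpa, -1.32 for Plin2, -5.77 for Cd36 and 3.08 for Fabp4, all called. In HD28 minus MSC without it, Pparg stood at 0.61, Cebpa at -0.60, Cebpb at 0.64 and Lpl at 0.87, none of them called. These comparisons share arrays, so their calls are not independent of each other.

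**Figure D4:**
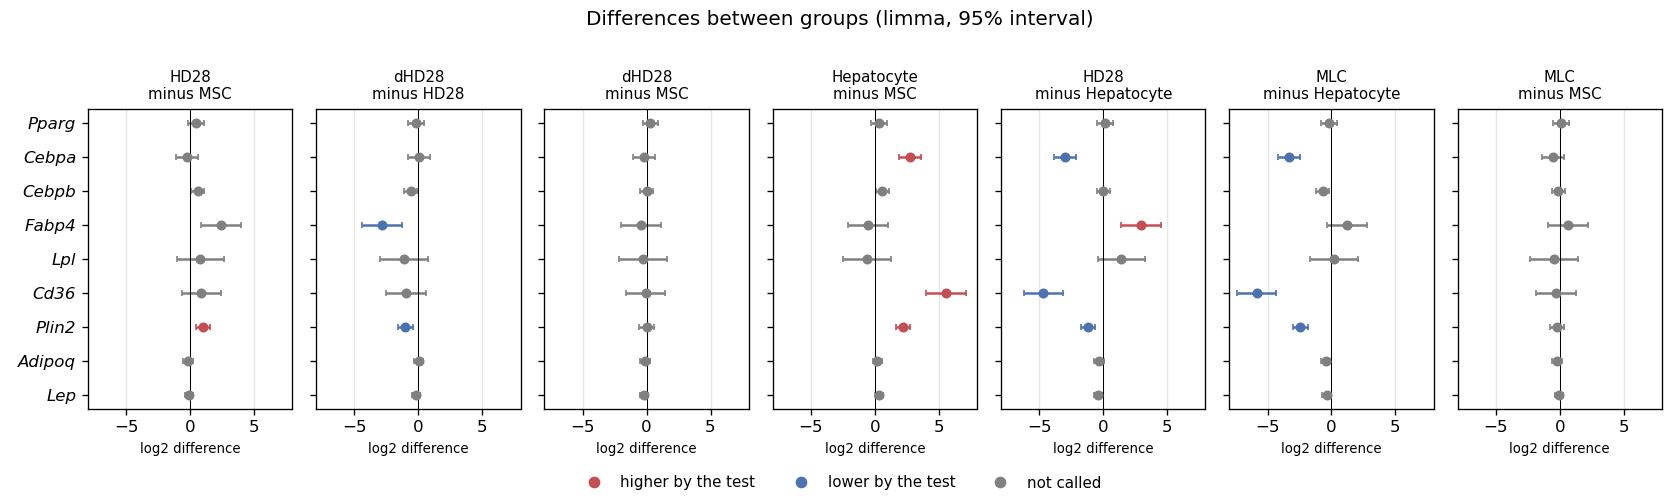
Log2 difference (x axis) of the 9 measured members (y axis) in 7 comparisons, with 95% intervals from the limma fit; red is called higher, blue is called lower and grey is not called. Fabp4 is not called in HD28 minus MSC (2.40) but is in dHD28 minus HD28 (-2.83), and no member is called in dHD28 minus MSC or MLC minus MSC.

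Genes around the members were described with 6 lists, by counts beside the background. Of 17 other adipogenic transcription factors 5 rose in HD28 against MSC and 0 fell, beside 3.24% of all genes higher and 3.52% lower (median 0.11, all genes -0.08). In dHD28 against HD28, which shares the HD28 arrays, 0 rose and 5 fell, beside 4.63% and 4.19%. Without HD28 replicate 3 the counts were 4 higher and 4 lower, beside 2.7% of all genes higher in HD28 minus MSC and 3.44% lower in dHD28 minus HD28. Klf15, a glucocorticoid-induced activator of fat cell genes, rose 8.28-fold (log2 3.05 ± 0.58, adjusted p = 0.00472, and 2.61 without HD28 replicate 3). Cebpd, the partner of Cebpb, rose 7.24-fold (log2 2.86 ± 0.35, adjusted p = 0.000213) and Klf5 3.71-fold (adjusted p = 0.0348). The call of Klf5 ended without any of MSC replicates 1 to 3 or HD28 replicates 2 and 3 (adjusted p from 0.0623 to 0.136). Of 13 inhibitors of adipogenesis 1 fell and 1 rose in HD28, or 2 and 0 without HD28 replicate 3, beside 3.06% lower and 2.7% higher there. Wnt10b, a secreted inhibitor, fell 2.63-fold (log2 -1.40 ± 0.15, adjusted p = 0.000104) and Foxo1 rose 2.05-fold, a call that ended without HD28 replicate 3 or MSC replicate 1 (adjusted p = 0.0505 and 0.0748).

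The counts of the lipid lists in HD28 against MSC also stand beside 3.24% of all genes higher and 3.52% lower. They were the same without HD28 replicate 3, beside 2.7% and 3.06%. Of 15 genes of droplet coat and assembly 1 rose, Bscl2, which encodes the droplet assembly protein seipin (3.83-fold, log2 1.94 ± 0.35). Of 7 lipolysis genes 2 rose, the monoglyceride lipase Mgll (7.51-fold, log2 2.91 ± 0.40) and Abhd5, the activator of the triglyceride lipase (2.96-fold, log2 1.56). With the mean of all its probe sets Abhd5 stood at 0.88 and was not called. Of 13 lipase and uptake partners 2 rose and 1 fell. Angptl4, a secreted inhibitor of lipoprotein lipase, rose 5.87-fold, or by 0.70 without _x_at and _s_at probe sets. The lipoprotein receptor Vldlr rose 5.49-fold (adjusted p = 0.0126, and 0.0509 without MSC replicate 1), while Fabp5, a relative of Fabp4, fell 3.01-fold (log2 -1.59 ± 0.30).

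Of 10 adipokines and receptors beyond the members 3 rose in HD28 and 0 fell, beside the same 3.24% and 3.52% of all genes. Cdh13, which encodes the adiponectin-binding T-cadherin, rose 11.9-fold (log2 3.58 ± 0.26, adjusted p = 2.92e-06). Rarres2, which encodes chemerin, rose 7.43-fold by its brightest probe set, but stood at -0.07 without _x_at and _s_at probe sets. Nampt rose 2.72-fold (adjusted p = 0.0251), a call that ended without MSC replicate 1 or 2 or HD28 replicate 1 or 2 (adjusted p from 0.0686 to 0.101). In dHD28 against HD28, which shares the HD28 arrays, 0 of this list rose and 3 fell, with Cdh13 at -3.99, beside 4.63% and 4.19% of all genes. Without HD28 replicate 3, 0 rose and 2 fell, beside 3.91% and 3.44%, and Nampt was not called (adjusted p = 0.0545 by limma). Of the list of 5 glucocorticoid targets, 4 rose in HD28 against MSC and 0 fell, with and without HD28 replicate 3. Without it the shares of all genes were 2.7% higher and 3.06% lower. Of the named list genes without that replicate, Cebpd stood at 2.87, Wnt10b at -1.41, Bscl2 at 1.98, Mgll at 3.21, Angptl4 at 2.33 and Cdh13 at 3.64 in HD28 minus MSC, all called.

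**Figure D5:**
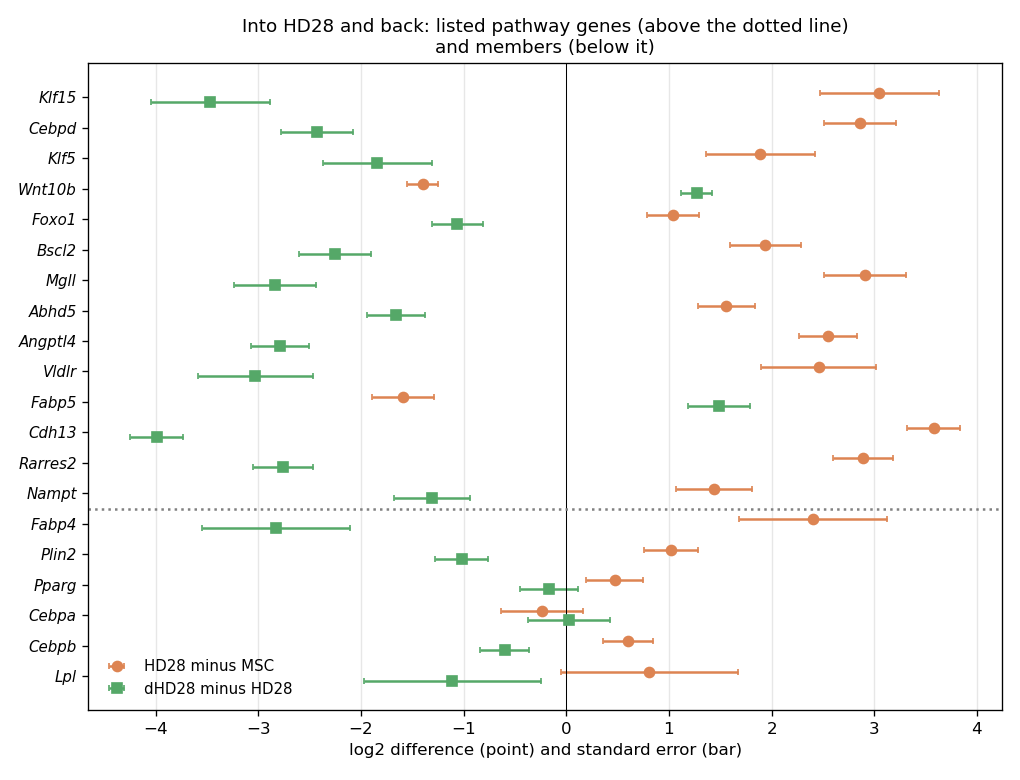
Log2 difference with its standard error (x axis) of 14 genes of the pathway lists, above the dotted line, and of 6 members, below it (y axis), in HD28 minus MSC (circles) and dHD28 minus HD28 (squares), which share the HD28 arrays. Cdh13 (3.58 and -3.99) lies farthest out among the genes drawn, and Pparg (0.47 and -0.17) and Cebpa (-0.24 and 0.03) lie near 0.

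In Hepatocyte against MSC, 8 of 15 droplet genes were higher and 1 lower, and the counts of this comparison stand beside 11.8% of all genes higher and 18.3% lower (median 1.43, all genes 0.04). Among them are Cideb, a droplet protein of lipoprotein-secreting cells (85.3-fold), the triglyceride synthase Dgat2 (41.1-fold) and Plin5, a droplet coat protein of oxidative tissues (33.2-fold). Of 7 lipolysis genes 4 were higher and 0 lower, with G0s2, an inhibitor of the triglyceride lipase, at 37.8-fold. Of 13 uptake partners 7 were higher and 4 lower, or 5 and 2 with the mean of all probe sets. The liver fatty acid binding protein Fabp1 was 1540-fold higher, approximate because its MSC mean of 3 is dim, while Fabp5 was 4.10-fold lower. Of 13 inhibitors of adipogenesis 7 were lower and 1 higher, with Sox9 4.83-fold lower. Of 17 other adipogenic transcription factors 7 were higher and 4 lower, with Klf15 at 55.7-fold. Of 10 adipokines and receptors 3 were higher and 2 lower, with Rarres2 at 47.1-fold by its brightest probe set. In HD28 minus Hepatocyte, Klf15 (log2 -2.75) and Rarres2 (-2.67) were called lower, while Cebpd (3.49), Klf5 (4.78) and Cdh13 (5.71) were called higher.

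The genes most like the called members over the 15 arrays, by Pearson's r among 16366 genes and as a description only, were as follows. All 15 arrays entered, so differences between groups and within groups both count. For Cebpa they were Akr7a5 (0.973), Srebf1 (0.971) and Efna1 (0.97), and for Plin2 Dusp22 (0.981), Oplah (0.977) and Iigp1 (0.973). For Cd36 they were Slc16a12 (0.995), Ctss (0.994) and Cdh1 (0.994). For Fabp4 the closest were Fam120c (0.935), Med12l (0.93) and Adgrg2 (0.928).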

How the data were processed

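The members, the lists and the tests were chosen with earlier results of these data known. The authors deposited log2 expression values for 15 arrays, made by RMA per the submitters' processing notes (no version named); the log base was taken from the range of the values, and genome build and further settings are not given in the sources used here. RMA normalises arrays together and compresses differences of dim probe sets. Precision is limited by the number of arrays. Of 45101 probe sets, 34945 had 1 gene symbol, 932 several and 9160 none, and 64 are controls.

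Group means of all 15 arrays were fitted with limma 3.58.1 in R 4.3.3 (lmFit, eBayes), with 10 residual degrees of freedom and two-sided p-values adjusted by Benjamini-Hochberg over 18193 genes. Probe sets were also tested by themselves. The fit was tested on simulated data. No samples were left out, and 0 columns belong to no sample. Classes of spike-in signal were divided at 6.5. Deviations of same-numbered arrays from their group means correlated at 0.321, 0.275 and 0.125 between HD28 and dHD28. Arrays of a number there share the spike-in class, as they do between Hepatocyte and MSC (0.252, 0.232 and 0.0686). Pairing and spike-in class cannot be told apart in these values, and the main fit used no pairing. In each other comparison at least 1 pair was under 0.1, as it was between Hepatocyte and MSC. Values were farthest apart between dHD28 and MSC (-0.286, -0.64 and 0.689) and between MLC and MSC (-0.21, -0.678 and 0.773). In both of these the arrays of number 3 share the spike-in class and those of number 2 do not. Names were taken from all members, for each list the 3 called genes with the largest difference in HD28 and in Hepatocyte against MSC, and the 3 genes most like each called member (symbols of clones and models left out).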

Additional observations from a re-analysis of the deposited data

Results flagged for a closer look

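The change on return to MSC medium differed between the hepatocytes (MLC minus Hepatocyte) and the HD28 cells (dHD28 minus HD28) in 4 of 9 members, by a limma contrast of the difference itself over 18193 genes, beside 23.7% of all genes. For Cd36 the difference was -4.89 on the log2 scale (adjusted p = 0.00246), from changes of -5.86 and -0.96. The -0.96 rests on HD28 replicate 3: without it dHD28 minus HD28 was 0.13 and the difference between the returns -5.99 (adjusted p = 5.04e-06). The other 2 HD28 arrays and all 3 dHD28 arrays were under the lower quartile for Cd36, where a fall can hardly show. For Cebpa it was -3.32 (adjusted p = 0.000703), from -3.29 and 0.03, and for Plin2 -1.42 (adjusted p = 0.0111), from -2.44 and -1.02. Before the return HD28 minus Hepatocyte was already -3 for Cebpa and -1.18 for Plin2. After it MLC and dHD28 averaged 7.9 and 8.22 for Cebpa, and 9.55 and 9.79 for Plin2. These 2 differences therefore largely repeat the starting levels, and Cebpa in HD28 (8.19) stood near MSC (8.43) from the start. For Fabp4 the difference was 4.01 (adjusted p = 0.00959), from 1.18 and -2.83, where the 1.18 was not called (adjusted p = 0.202). Before the return HD28 minus Hepatocyte was already 2.93 for Fabp4 and -4.68 for Cd36. After it MLC and dHD28 averaged 8.1 and 7.01 for Fabp4, and 2.08 and 2.29 for Cd36. The Fabp4 and Cd36 differences therefore also repeat the starting levels in large part. The 2 returns differ in starting cell and in TGF-β1, which cannot be told apart here, and the time in MSC medium is not given for dHD28.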

How the results depend on the processing

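The count of called members was the same in every setting for Hepatocyte minus MSC (3), HD28 minus Hepatocyte (4), dHD28 minus MSC (0), MLC minus MSC (0) and the difference between the returns (4), with each of 15 arrays left out in turn. For HD28 minus MSC the count of 1 became 2, with Fabp4 added, under the mean of all probe sets, without dim genes, after quantile normalization again, centring on the median or on housekeeping genes, with the replicate block and with a block for spike-in class. It became 0 with only the arrays compared, and 0 to 2 with an array left out. For dHD28 minus HD28 the count of 2 became 1 after centring on the median, with array weights and, chosen after seeing the data, with that class block but HD28 replicate 3 left out, and 0 to 2 with an array left out. The replicate block left it at 2 and changed no other call than Fabp4 in HD28 minus MSC (adjusted p = 0.0478 by limma). The numbers are not known to pair the samples there, with correlations of -0.136, -0.164 and 0.0773. MLC minus Hepatocyte went from 3 to 5 with no fold limit, by Cebpb and Lep. Without _x_at and _s_at probe sets Rarres2 turned from 2.89 to -0.07 in HD28 minus MSC. Other causes were not tested. Signals near the lower quartile, as for Adipoq and Lep, limit what these arrays can show.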
